A study of Mus musculus with 2 samples.

Results

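DNA methylation at 10 genes of the Notch pathway was mapped in the developing cortex of ICR mice at embryonic day 16. The genes were the receptors Notch1, Notch2, Notch3 and Notch4, the ligands Dll1, Jag1 and Jag2, and the Mastermind coactivators Maml1, Maml2 and Maml3. They were taken by gene symbol from the annotated peak lists of the series, which name 13253 genes, and all 10 were found. Together they held 134 peaks over 4 lists. The V/SVZ, the germinal layers along the ventricle where neuronal progenitors abound, and the cortical plate (CP), where young neurons settle, were dissected by hand from embryos of 1 strain and stage, and the labels name no treatment. Methylated DNA was captured with a kit and sequenced. The more methylated CpG sites a region holds, the more tags (aligned reads) it gives. There was 1 library per tissue and therefore no replicate error and no p-value for any difference given here. The labels do not say how many embryos or which sexes were pooled, and hand dissection can carry over cells of the neighbouring layer. The lists hold no expression values of cell type markers by which the tissue labels could be checked.

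Notch receptors are single-pass membrane proteins. A ligand of the Delta or Jagged family on a neighbouring cell triggers their cleavage, and the released intracellular domain enters the nucleus, where it binds the DNA-binding protein Rbpj and a Mastermind coactivator and switches on targets such as the Hes and Hey repressors. In the embryonic cortex this signal is known for keeping radial glia in the progenitor state, while cells that start to differentiate present the ligand Dll1.

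Each tissue was compared by the authors with a control of unstated nature (control peaks) and directly with the other tissue (V/SVZ over CP and CP over V/SVZ peaks). The V/SVZ control list held 1000061 tags in 52283 peaks and the CP control list 1710134 tags in 53404 peaks. Total tags per library were not given in the sources used here. The control lists end at a lowest fold over local expectation of 11.48 in V/SVZ and 14.71 in CP, so a region in neither list can still be enriched below these folds. A peak carries a status: inside the gene, upstream of it or downstream of it, within 10 kb. Significance (minus 10 times the log10 of the peak caller's p), fold and false discovery rate are the authors' own values. That rate was 37.9% to 89.3% for the V/SVZ over CP peaks of the 10 genes beside a median of 67.6% in that whole list. It was 100% for every peak of the CP over V/SVZ list, those of the 10 genes included. Peak positions are 1-based in mm9.

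None of the 10 genes had a listed peak over its 5′ end. The nearest was at Notch3, where both tissues had a control peak upstream within 1 kb: 8 tags in V/SVZ, 595 bp from the transcript, and 12 tags in CP, 623 bp from it. Notch3 was thus the only 1 of the 10 genes with a control peak over the 5′ end or within 1 kb upstream, against 5.11% of 13194 genes in V/SVZ and 6.50% in CP. None had a direct peak there, against 1.17% of genes for V/SVZ over CP and 3.92% for CP over V/SVZ. Peaks inside a gene have a deposited distance of 0, so a peak just behind a start would not be counted. The capture reads methylated CpG sites, and the bases before the starts are shown to place this result beside the sites available there. The sequences are from RefSeq (GRCm38.p6, another build than that of the peaks), 250 bases before the transcript start, 5′ to 3′, with each CpG in capitals. Notch3 is shown for its upstream peaks, which lie beyond the window, Maml3 as the gene with the most peaks, and Notch4 as the receptor with the fewest CpG sites:
Notch3 (chr17:32166891-32167140, minus strand): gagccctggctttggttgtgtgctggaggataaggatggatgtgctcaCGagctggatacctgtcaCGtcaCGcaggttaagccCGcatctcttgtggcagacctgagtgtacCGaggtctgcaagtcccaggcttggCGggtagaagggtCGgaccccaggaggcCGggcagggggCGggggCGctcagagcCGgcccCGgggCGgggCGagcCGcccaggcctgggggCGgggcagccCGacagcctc
Maml3 (chr3:52105007-52105256, minus strand): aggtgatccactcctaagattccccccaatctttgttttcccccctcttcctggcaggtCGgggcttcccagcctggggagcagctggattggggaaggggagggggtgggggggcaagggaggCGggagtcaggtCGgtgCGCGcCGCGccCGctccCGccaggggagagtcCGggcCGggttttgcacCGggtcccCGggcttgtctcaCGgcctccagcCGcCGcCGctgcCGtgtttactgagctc
Notch4 (chr17:34564045-34564294, plus strand): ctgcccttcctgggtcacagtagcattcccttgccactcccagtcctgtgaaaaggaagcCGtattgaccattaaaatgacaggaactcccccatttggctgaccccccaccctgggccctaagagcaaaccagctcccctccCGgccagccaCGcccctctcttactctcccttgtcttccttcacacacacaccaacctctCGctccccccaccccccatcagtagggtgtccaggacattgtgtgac
The window of Notch3 held 17 CpG sites, that of Maml3 18 and that of Notch4 4, beside a median of 6 over 32841 such windows of all genes. All 10 genes matched the RefSeq table, with 12 windows. Jag2 had the most, 54, and 0.0152% of all windows held at least as many. Notch2 had 34, Jag1 20, Maml1 18 and Notch1 16. The 2 start sites of Dll1 had 21 and 13, and those of Maml2 had 2 and 6. All 12 windows held at least 1 CpG site, as did 92.1% of the 32841 windows. No listed peak lay over the annotated 5′ end of any of these genes.

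The 10 genes held 52 V/SVZ control peaks (6 to 71 tags, median 14) and 36 CP control peaks (7 to 114 tags, median 20.5), and each gene had at least 1 in each tissue, as had 83.6% of all 13253 genes. Of the 52, 48 lay inside the gene, 3 upstream and 1 downstream, where 66.6% of all assignments of a V/SVZ control peak to a gene were inside it. Of the 36 the numbers were 32, 3 and 1, with 64.7% inside over all genes. In the direct comparison, 7 of the 10 genes had a call of V/SVZ over CP, against 54.6% of the 13194 genes with a control peak. The opposite call, CP over V/SVZ, was found in 8 of the 10, against 57.0%. Notch1, Notch2, Notch3, Notch4, Maml1 and Maml3 carried both kinds, as did 31.3% of all genes. Dll1 carried V/SVZ over CP peaks alone, Jag2 and Maml2 carried CP over V/SVZ peaks alone, and Jag1 carried neither. All 27 V/SVZ over CP peaks lay inside the gene (70.0% over all genes) and held 6 to 61 tags with a median of 11, beside 9 in the whole list. The 19 CP over V/SVZ peaks, 16 of them inside the gene (59.5% over all genes), held 7 to 450 tags with a median of 41, beside 18 in the whole list. The 4 receptors held 9 peaks of each direction, with a median of 16 tags for V/SVZ over CP and of 46 for CP over V/SVZ.

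Over all genes, those with many control peaks more often carried a direct peak. Among genes with 1 control peak, V/SVZ was called over CP in 29.5% and CP over V/SVZ in 38.5%. Among those with 2 to 3, as Notch1, Dll1 and Maml2 had, the shares were 36.0% and 44.8%. With 4 to 7, as in Notch4, Jag1, Jag2 and Maml1, they were 61.8% and 61.6%. With 8 to 15, as in Notch2 and Notch3, they were 88.6% and 79.3%. With 16 to 31, as in none of the 10 genes, they were 97.2% and 92.2%, and all 58 genes of the class of Maml3 (32 or more) carried both kinds (100% and 100%). The number of genes called in each direction thus stood near the background. Both kinds were carried by 6 of the 10 genes, against 31.3% of all genes. Outside the class of Maml3 this share was not split by number of control peaks. What follows is the positions and tags of the peaks. The 10 genes are all autosomal.

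**Figure D1:**
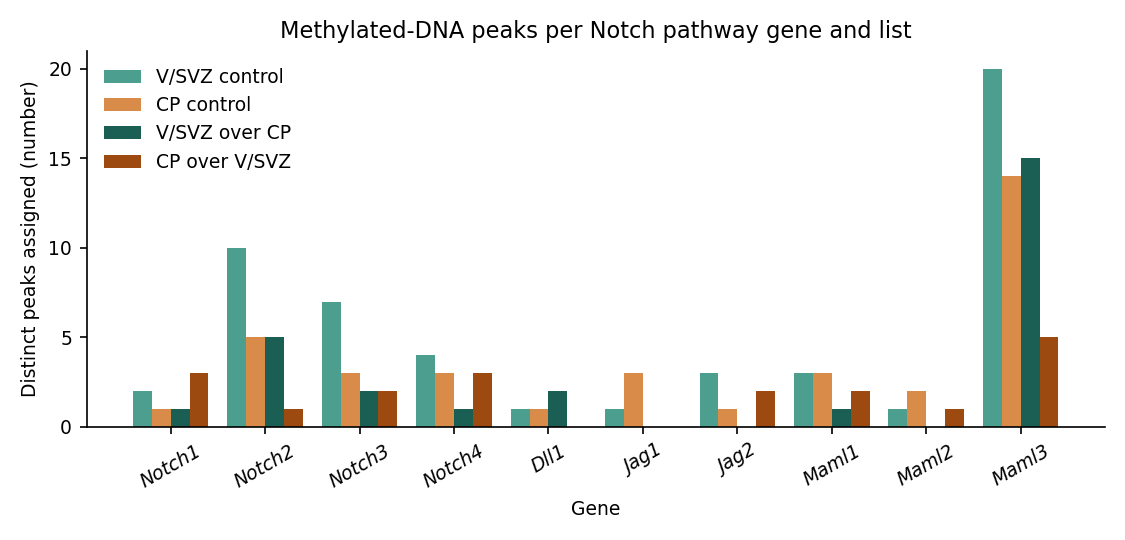
Bars give the number of distinct peaks (y axis) assigned to each of the 10 genes (x axis) in the 4 lists. Maml3 stands apart with 20, 14, 15 and 5 peaks, Notch2 follows with 10, 5, 5 and 1, and Jag1 has no direct peak.

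Notch1, the founding mammalian receptor of the family, held more CP than V/SVZ tags where both could be read. It had 2 V/SVZ control peaks, of 35 and 45 tags in 5′ to 3′ order, and 1 CP control peak of 105 tags. All 7 of its listed peaks lay inside the gene. The CP peak (chromosome 2, 26332346 to 26332780) overlapped the V/SVZ peak of 35 tags. The ratio of CP to V/SVZ tags was 3.0, with an exact 95% interval of 2.03 to 4.53 that covers counting error only. These tags carry no depth scaling. Over the 32542 autosomal control peaks that both tissues shared, the ratio had a median of 1.83. This region was called CP over V/SVZ.

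Further CP over V/SVZ peaks in Notch1 held 168 tags (26323126 to 26324437) and 98 tags (26320462 to 26321274), and neither overlapped a listed control peak of either tissue. A single V/SVZ over CP peak of 16 tags lay closer to the 5′ end (26335522 to 26335959), also outside the listed control peaks. Of the whole CP over V/SVZ list of 19696 peaks, 645 held at least as many tags as the peak of 168.

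Notch2, a receptor known for holding adult neural stem cells quiescent, had the most V/SVZ over CP peaks of the receptors. Its 10 V/SVZ control peaks, all inside the gene, held 12, 6, 17, 6, 13, 8, 27, 6, 53 and 71 tags in 5′ to 3′ order. Its 5 CP control peaks held 9, 10, 39, 8 and 91 tags. The 5 V/SVZ over CP peaks had the same coordinates as V/SVZ control peaks, with 6, 17, 8, 27 and 6 tags. Over all genes, 540 had at least 5 such peaks, and the median gene with 8 to 15 control peaks had 2.

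The most significant V/SVZ over CP peak of the 10 genes was among them (chromosome 3, 97915189 to 97915698, significance 297). V/SVZ had 27 tags there and the overlapping CP peak 8, a ratio of 0.296 (0.116 to 0.670), the lowest of the shared peaks of the 10 genes. The peak of 17 tags (97882442 to 97882746) overlapped no listed CP control peak. The first peak of 6 tags (97876651 to 97876876) overlapped a CP control peak of 10 tags, a ratio of 1.67 (0.549 to 5.58). V/SVZ was thus called over CP with fewer unscaled tags in V/SVZ, and the interval held the autosomal median of 1.83. The single CP over V/SVZ peak of 58 tags (97946864 to 97947251) lay toward the 3′ side of these and overlapped no listed control peak.

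Notch3, the receptor of vascular mural cells and also of neural progenitors, had 7 V/SVZ control peaks of 8, 49, 55, 53, 21, 53 and 61 tags in 5′ to 3′ order, the first upstream and the others inside the gene. Its 3 CP control peaks held 12 (upstream), 107 and 82 tags. All 3 overlapped V/SVZ peaks, with ratios of 1.5 (0.564 to 4.23), 2.02 (1.44 to 2.86) and 1.55 (1.08 to 2.23), each with an interval that held the autosomal median of 1.83. The V/SVZ over CP peaks held 21 tags and 61 tags, and the CP over V/SVZ peaks 25 and 46.

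The deposited distances place the Notch3 start at 32303797 on chromosome 17 (minus strand). From it, the V/SVZ over CP peak of 61 tags (32258840 to 32259870) began 43.9 kb into the gene, where CP had no listed control peak. The peak of 21 tags (32283784 to 32284448) began at 19.3 kb, and the CP over V/SVZ peak of 46 tags (32284706 to 32285033) at 18.8 kb, with 257 bp between them. Calls of opposite direction thus stood side by side in this gene. Among all autosomal V/SVZ over CP peaks inside genes, 3.42% had an opposite call within 1 kb. Over the 10 genes this was so for 1 of 27 such peaks and for 1 of 19 CP over V/SVZ peaks (background 4.91%).

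Notch4, the receptor of endothelial cells, had V/SVZ control peaks of 9, 11 and 14 tags inside the gene and 1 of 15 tags downstream at 6706 bp. Its CP control peaks held 7 tags (upstream, 7063 bp), 22 tags and 41 tags. Only 6 tags marked its V/SVZ over CP peak (chromosome 17, 34705311 to 34705755). The CP over V/SVZ peaks held 7 tags upstream, and 19 and 41 inside the gene. At the last (34720652 to 34721012), 19.4 kb from the start at 34701239, V/SVZ had 11 tags, a ratio of 3.73 (1.88 to 8.04). This region is also assigned to the neighbours Gpsm3 and Pbx2, the peak of 19 tags to Gpsm3 and the upstream peak to Btnl7, so these calls are not particular to Notch4.

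**Figure D2:**
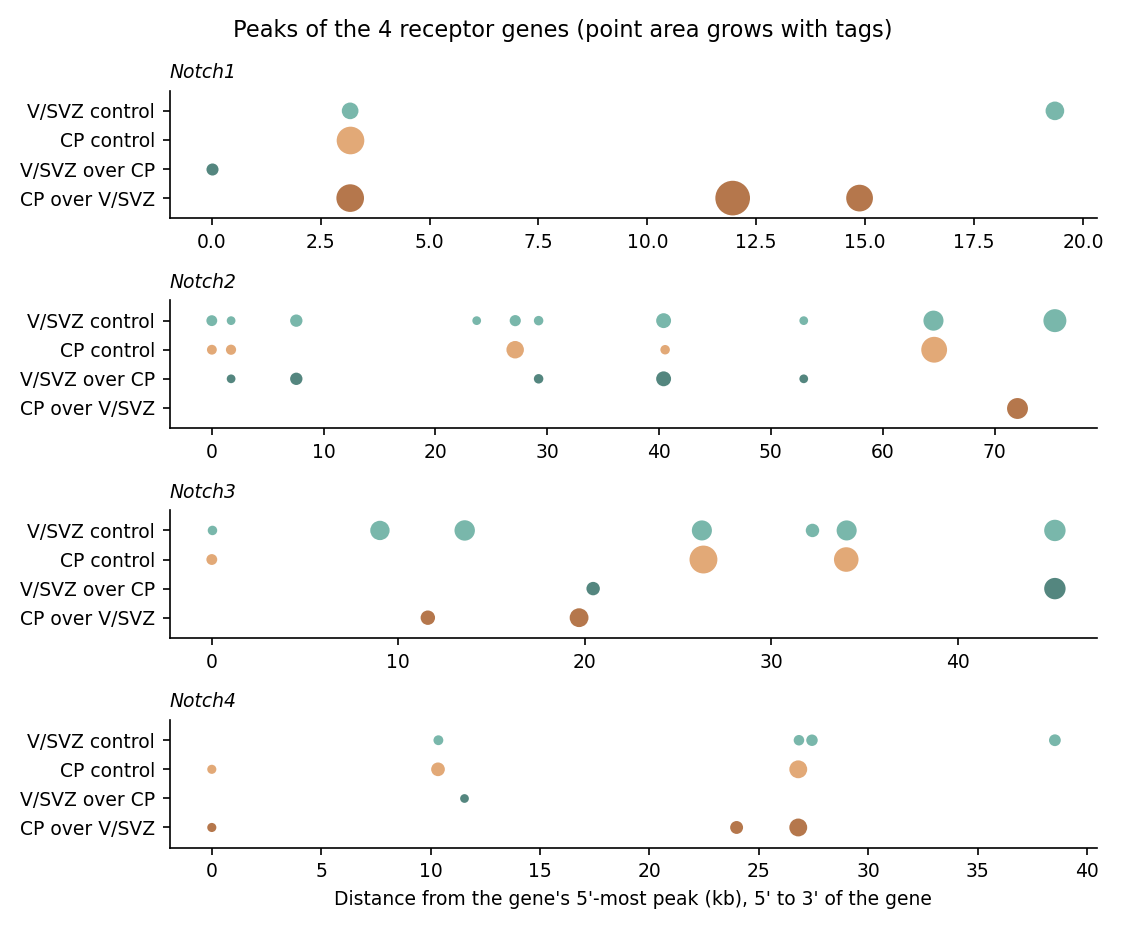
Each panel is a receptor gene, with distance in kb from its 5′-most peak on the x axis, the 4 lists as rows, and point area growing with tags. Notch2 shows 5 V/SVZ over CP peaks of 6 to 27 tags and 1 CP over V/SVZ peak of 58 tags beyond them, and Notch1 shows 3 CP over V/SVZ peaks of 98 to 168 tags.

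Dll1, the Delta ligand of differentiating progenitors, had a V/SVZ control peak of 33 tags (chromosome 17, 15505434 to 15506190) and a CP control peak of 25 tags (15507203 to 15507684) that did not overlap it. The V/SVZ peak was called over CP with the same coordinates. A V/SVZ over CP peak of 11 tags (15510312 to 15510680) lay nearer the 5′ end, outside the listed control peaks. No CP over V/SVZ peak was assigned to the gene.

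Jag1, a Jagged ligand with roles in vessels and in the inner ear, had 1 V/SVZ control peak of 10 tags and 3 CP control peaks of 7 (upstream, 3134 bp), 7 and 9 tags. The V/SVZ peak and the CP peak of 9 tags overlapped 32.8 kb from the start (chromosome 2, 136908927 to 136909267 in CP), with a ratio of 0.90 (0.324 to 2.46). At such tag numbers the interval spans values below and above 1, and it held the autosomal median of 1.83. No direct peak was called.

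Jag2, the other Jagged ligand, had the peak with the most tags among the 10 genes. It lay inside the gene (chromosome 12, 114148157 to 114150378, 2222 bp long), 17.3 kb from the start at 114167706, and held 450 CP tags in the CP over V/SVZ list. Only 82 peaks of the 19696 in that list held as many tags or more, and 41 were as long or longer. It overlapped no listed control peak of either tissue, its fold over V/SVZ was 4.08 and its significance 70.4, below the list's median of 86.6. A further CP over V/SVZ peak of 62 tags lay 8708 bp upstream.

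The control peaks of Jag2 held 41 tags in V/SVZ inside the gene (114164655 to 114165423), and 24 and 19 tags upstream at 4305 and 5319 bp. The single CP control peak held 103 tags and overlapped the first, a ratio of 2.51 (1.73 to 3.702), whose interval held the autosomal median. All Jag2 peaks apart from that of 450 tags are also assigned to the neighbour Nudt14.

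The Mastermind coactivators bridge the Notch complex to histone acetyltransferases. Maml1, the best studied of them, had V/SVZ control peaks of 6, 14 and 33 tags in 5′ to 3′ order, all inside the gene. Its CP control peaks held 31 and 60 tags inside and 10 tags downstream at 2843 bp. The regions with 14 and 33 V/SVZ tags were shared, with ratios of 2.21 (1.14 to 4.50) and 1.82 (1.17 to 2.87). The peak of 6 tags (chromosome 11, 50096740 to 50096949) was the V/SVZ over CP call, while the downstream peak of 10 tags and a peak of 8 tags inside the gene (50069931 to 50070166) were CP over V/SVZ calls. The 2 directions thus fell at opposite ends of the gene's peaks.

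Maml2 had few peaks. Both tissues had a control peak at the same place inside the gene (chromosome 9, 13491557 to 13491914 in V/SVZ), with 20 V/SVZ tags and 40 CP tags. The ratio was 2.0 (1.14 to 3.61), and the fold over control was 50 in each, the highest value that either list holds. A CP control peak of 8 tags (13506373 to 13506601) was also the gene's only direct call, CP over V/SVZ.

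Maml3 held 54 of the 134 listed peaks: 20 V/SVZ control, 14 CP control, 15 V/SVZ over CP and 5 CP over V/SVZ, all inside the gene. They spread over 374 kb (chromosome 3, 51492337 to 51866803). The gene is on the minus strand, and positions are given in kb from the 5′-most peak toward the 3′ end. At most 23 tags were found in a V/SVZ control peak and 114 in a CP control peak.

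The V/SVZ over CP peaks of Maml3 held 6 tags at 0.12 kb, 7 at 15.01 kb and 20 at 23.5 kb. After a stretch of 189 kb without such a call came 6 tags at 212 kb, 12 at 214 kb, 11 at 218 kb and 14 at 236 kb. A further run held 12 tags at 280 kb, 9 at 288 kb, 8 at 295 kb and 7 at 299.7 kb, and the 3′-most calls held 6 at 334 kb, 9 at 338 kb, 20 at 371 kb and 12 at 374 kb. The peaks at 371 and 374 kb are also assigned to the neighbour Mgst2. Of the 15, 12 had the coordinates of a V/SVZ control peak, and 14 overlapped no listed CP control peak. The exception, at 23.5 kb, held 20 V/SVZ tags and 27 CP tags, a ratio of 1.35 (0.729 to 2.54), and had the lowest significance of the 15 (52.5). Over the whole V/SVZ over CP list, 85.0% of peaks overlapped a V/SVZ control peak and 26.0% a CP control peak, so a missing CP partner was usual there.

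The stretch without V/SVZ over CP calls was not empty of methylated DNA. It held 4 V/SVZ control peaks, of 12 tags at 24.7 kb, 14 at 80.1 kb, 17 at 111 kb and 23 at 207 kb. It also held 6 CP control peaks, of 9 tags at 62.8 kb, 24 at 80.1 kb, 9 at 109.5 kb, 7 at 132 kb, 10 at 183 kb and 114 at 207 kb. The V/SVZ peak at 111 kb and the CP peak at 109.5 kb did not overlap.

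The CP over V/SVZ peaks of Maml3 held 9 tags at 62.8 kb, 114 at 207 kb, 42 at 279 kb, 13 at 322 kb and 21 at 365 kb. The first 2 of them lay in the stretch without V/SVZ over CP calls. The peak of 114 tags (51659284 to 51659855, significance 240) was the most significant CP over V/SVZ peak of the 10 genes. V/SVZ had 23 tags there, a ratio of 4.96 (3.15 to 8.13), the highest of the shared peaks, and it lay 4.80 kb from a V/SVZ over CP peak. The peak of 42 tags (51587659 to 51588266) overlapped no listed V/SVZ control peak and lay 1195 bp from a V/SVZ over CP peak of 12 tags. Calls of both directions were thus interspersed along the 3′ part of the gene.

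**Figure D3:**
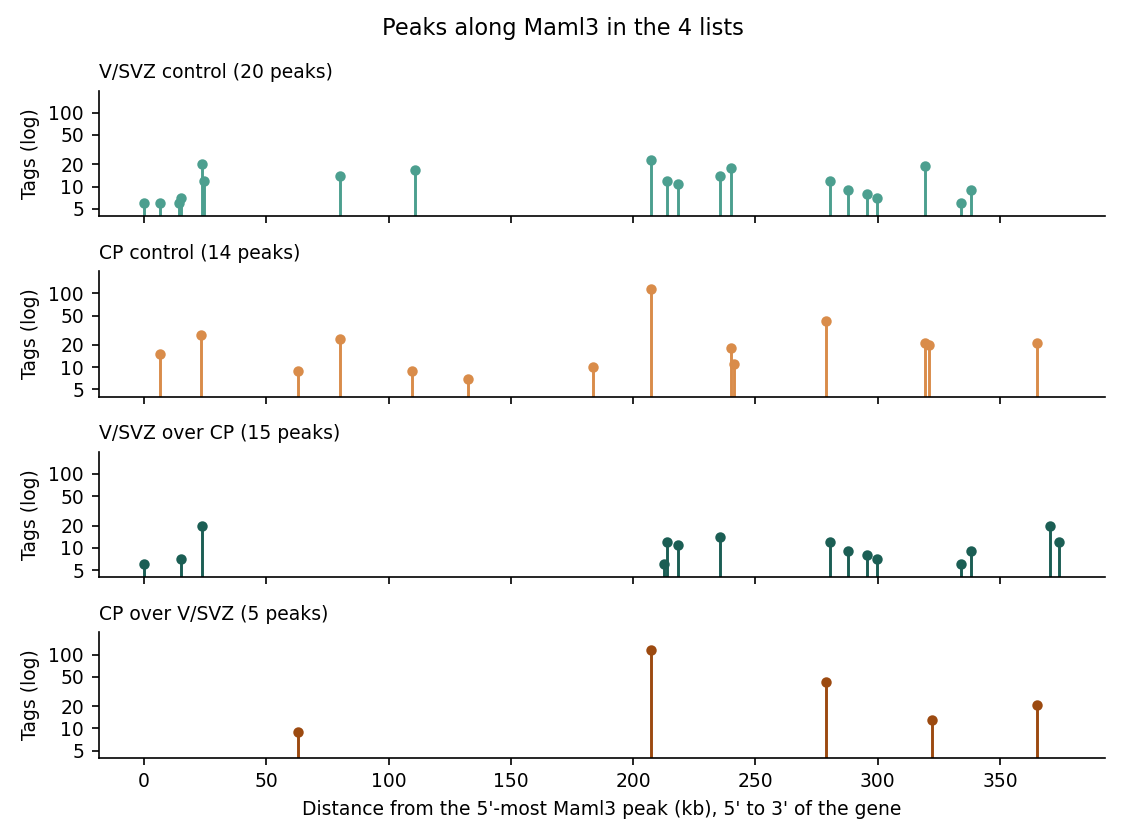
Stems give the tags of each Maml3 peak (y axis, log scale) against its distance in kb from the 5′-most peak (x axis) in the 4 lists. The 15 V/SVZ over CP peaks of 6 to 20 tags leave a stretch of 189 kb empty, whereas the CP over V/SVZ peak of 114 tags stands at 207 kb.

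The remaining V/SVZ control peaks of Maml3 held 6 tags at 6.37 kb and at 14.4 kb, 18 at 240.0 kb and 19 at 319 kb. CP held 15 tags at 6.45 kb, 18 at 239.8 kb, 11 at 241 kb, 21 at 319 kb and 20 at 321 kb. With 15 of its 20 direct peaks V/SVZ over CP, Maml3 stood at 75%. Over the 244 genes with 10 or more direct peaks the median share was 69.2%, and 32.8% of them had a share of at least 75%. Over all genes, 24 including Maml3 had 15 or more V/SVZ over CP peaks, and the median of the 58 genes in its class was 12 such peaks and 4 of the opposite kind. Its excess of V/SVZ over CP calls was near the background for genes with this many peaks. By the numbers of peaks in the 4 lists, the 5 genes nearest to Maml3 of 13252 were Arid1b (18, 15, 14 and 6 peaks), Igsf21 (21, 17, 17 and 5), Tshz2 (18, 13, 13 and 4), Dst (18, 11, 14 and 6) and Cdh4 (18, 15, 12 and 4).

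Over the 10 genes, 22 V/SVZ control peaks overlapped a CP control peak, and their median CP to V/SVZ ratio was 1.77, beside 1.83 over all shared autosomal peaks (lower quartile 1.25, upper quartile 2.61). The ratios ran from 0.296 in Notch2 to 4.96 in Maml3. A ratio at least 2 times above the autosomal median was found at 2 of 22 (background 9.27%), in Notch4 and Maml3, and at least 2 times below it at 3 of 22 (background 11.1%), at the Notch2 peaks of 27 and 12 V/SVZ tags and in Jag1. The Notch2 peak of 12 tags had 9 in CP, a ratio of 0.75 (0.279 to 1.94). The exact interval left out the autosomal median at 4 of 22 (background 22.7%), above it in Notch1, Notch4 and Maml3 and below it at the Notch2 peak of 27 tags. These shares were near the background.

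The shared peaks not yet given had ratios inside these limits. In Notch2 they were 3.0 (1.57 to 6.13) at the peak of 13 V/SVZ tags and 1.72 (1.21 to 2.46) at the peak of 53, and in Notch4 2.44 (1.08 to 6.03) at the peak of 9. In Maml3 the 5′-most was 2.50 (0.917 to 7.86), followed by 1.71 (0.852 to 3.58) at 80.1 kb, 1.00 (0.491 to 2.04) at 240.0 kb and 1.11 (0.566 to 2.17) at 319 kb. The 6 Maml3 ratios had a median of 1.53.

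**Figure D4:**
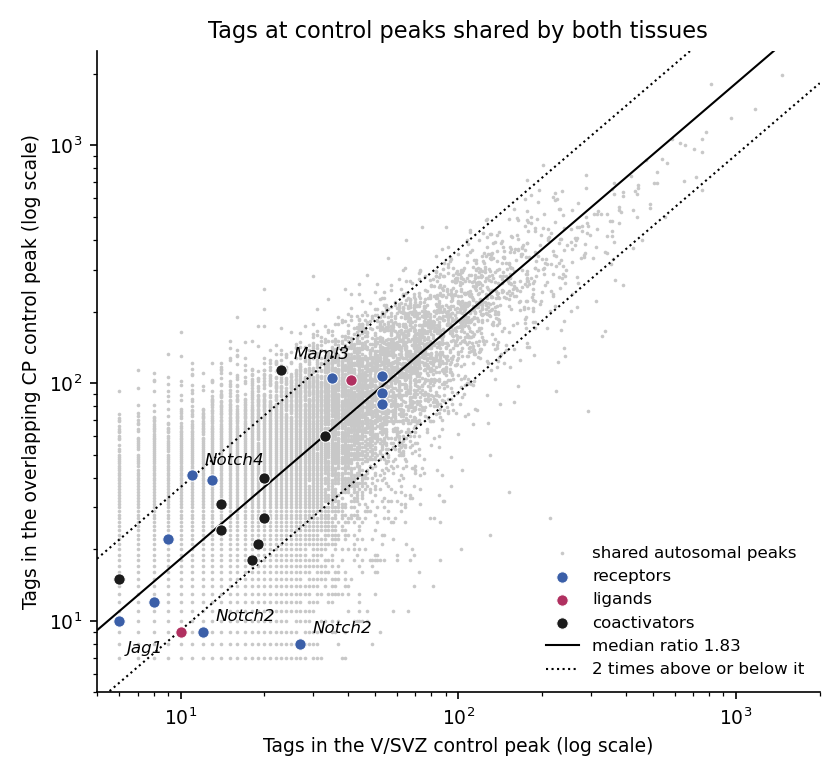
Each point is a control peak shared by both tissues, with its V/SVZ tags (x axis, log scale) against the tags of the overlapping CP peak (y axis, log scale), in grey for all autosomal peaks and in colour for receptors, ligands and coactivators. The 22 coloured points lie around the line of the median ratio of 1.83, with Maml3 and Notch4 above the upper dotted line and 2 Notch2 peaks and Jag1 below the lower one.

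Part of the control peaks of these genes had no overlapping peak in the other tissue's list. Both control lists are incomplete, as 15993 numbered CP peaks and 6299 numbered V/SVZ peaks are missing. The lowest listed fold was also higher for CP (14.71) than for V/SVZ (11.48). A peak without an overlap thus lacks a listed partner, and whether the other tissue was enriched there was not tested. Of the 52 V/SVZ control peaks, 22 overlapped a CP control peak (42.3%, Wilson 95% interval 29.9 to 55.8%), against 61.5% of all autosomal V/SVZ control peaks inside genes. Without Maml3 it was 16 of 32 (50%, 33.6 to 66.4%), and for Maml3 alone 6 of 20 (30%, 14.5 to 51.9%). Of the 36 CP control peaks, 22 overlapped a V/SVZ peak (61.1%, 44.9 to 75.2%), against 66.9% of those inside genes. For the receptors it was 11 of 12 CP control peaks (91.7%, 64.6 to 98.5%) and 11 of 23 V/SVZ control peaks (47.8%, 29.2 to 67.0%). Over the whole lists the shares were 64.5% for V/SVZ peaks and 62.9% for CP peaks, and on the autosomes 64.1% and 63.4%. The V/SVZ peaks of these genes had a low fold, with a median of 20.9 against 29.4 in the whole list. Of the 42 below the list's median fold 15 overlapped (35.7%, 23.0 to 50.8%, background 55.0%), and of the 10 at or above it 7 did (70%, 39.7 to 89.2%, background 71.3%). For the CP peaks the counts were 12 of 24 below (background 60.7%) and 10 of 12 at or above (background 74.7%). Peaks of 1 gene are neighbours and not independent, so the intervals cannot decide whether a share differs from the background. No test was made.

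Part of the direct calls lay outside the listed control peaks. Of the 27 V/SVZ over CP peaks, 20 overlapped a V/SVZ control peak (background 85.0%), and all 20 had its coordinates. Of the 19 CP over V/SVZ peaks, 9 overlapped a CP control peak (background 77.4%), again with the same coordinates. The 10 others included the Jag2 peak of 450 tags and the Notch1 peaks of 168 and 98 tags. In the other tissue's control list, 3 of 27 and 3 of 19 had an overlapping peak (background 26.0% and 28.2%).

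Other genes of the pathway were read from a list of 64 ligands, targets, modifiers and cofactors, of which 55 had a control peak. Of these, V/SVZ was called over CP in 30 and CP over V/SVZ in 29 (54.5% and 52.7%), close to the 54.6% and 57.0% of all genes. Among the most significant V/SVZ over CP calls were those in Itch, a ubiquitin ligase that acts on Notch (12 tags), Kat2b, a histone acetyltransferase (9 tags), and Dtx1, a Deltex protein (18 tags). None of these peaks overlapped a listed CP control peak, where 26.0% of the whole V/SVZ over CP list did. The first CP over V/SVZ calls were in the corepressor gene Ctbp1 (32 tags), the Dishevelled gene Dvl1 (95 tags), upstream of Snw1, an Rbpj-interacting cofactor (37 tags), and upstream of Pofut1, which adds fucose to Notch (31 tags). None of these 4 overlapped a listed V/SVZ control peak, and those of Dvl1 and Snw1 overlapped no listed CP control peak either. Over the whole CP over V/SVZ list, 28.2% of peaks overlapped a V/SVZ control peak. Of the Hes and Hey genes in the list, Hes5 had 2 V/SVZ over CP peaks. The more significant of them lay downstream of the gene (21 tags) and was in neither control list. Hey1 had 1 CP over V/SVZ peak, upstream, with 44 CP tags against 9 in V/SVZ. Hes6, Hey2 and Heyl had no direct peak, and Hes1 had no peak in any of the 4 lists. These genes were chosen for mention after their values were seen.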

How the data were processed

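Methylated DNA was enriched with the Methylated DNA Enrichment Kit and sequenced from 1 V/SVZ and 1 CP library, per the labels' protocols. The submitters' processing notes name CASAVA 1.8, Bowtie and mm9. Columns are named as MACS names them, per the file headers, and no source used here gives its settings or the version of Bowtie. Tags in the deposited tables are an unscaled read count per peak. The authors' significance is a score, their fold a ratio to local expectation, and their false discovery rate a percent. Lengths and distances are in bp, per the file headers.

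The control tables hold 65535 lines each, and 6299 V/SVZ and 15993 CP numbered peaks are not in them. Rows were matched by symbol and counted once per region (Python 3.11.15, pandas 2.3.3, SciPy 1.17.1). Overlap was counted from 1 bp. Tags of overlapping peaks were taken over each library's own peak and not scaled by depth, which is unknown. Ratios carry exact binomial and shares Wilson 95% intervals. Both cover counting error only, and reads without molecular identifiers are not independent molecules. The overlap and interval steps were tested on simulated data. The genes, the pathway list and the alternatives were chosen with earlier results of these data known. Named pathway genes were up to 4 per direction by significance, of which 1 is not reported here, and genes like Maml3 the 5 nearest in log2 peak numbers. The splits of shared peaks by fold and the window for opposite calls were chosen after the data were seen.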

Additional observations from a re-analysis of the deposited data

How the results depend on the processing

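Of 26 alternatives, 17 left the value within 1.5 times or within its interval. With direct peaks at or above their list's median significance, 4 genes carried V/SVZ over CP peaks (33.5% of all genes with a control peak under the same limit), with 13 peaks, 9 of them in Maml3. CP over V/SVZ peaks then numbered 9, 3 of them in Maml3, in 7 genes (35.8% of all genes). With direct peaks that overlap a listed control peak of the same tissue, 5 genes carried CP over V/SVZ peaks (46.8% of all genes), with 9 peaks (9 of 19, against 77.4% of the list). With tags per bp, 1 shared peak lay above and 1 below the limits of 2 times the autosomal median, in place of 2 and 3 (7.35% and 9.37% of shared autosomal peaks per bp). That median was then 1.64 and that of the genes 1.71. The cause was not tested, beyond the fewer peaks that the first 2 alternatives admit by construction. No paired analysis was possible because there is 1 library per tissue. Most peaks held few tags, so most intervals were wide, and the lowest listed folds limit what can be read as absent.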
